A study of Mus musculus with 6 samples.

Results

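The genes described here are 10 genes of the blood vessel wall and of vessel growth: the growth factor gene Vegfa, its receptor genes Kdr and Flt1, the Tie receptor genes Tek and Tie1, the co-receptor gene Eng, the junction genes Cdh5 and Pecam1, the secreted factor gene Egfl7 and the transcriptional repressor gene Bcl6b. Every probe set annotated to exactly 1 of these symbols was taken, which gave 10 probe sets, 1 per gene, of 24173 on the array, or 10 genes of 16537 with a usable probe set. A further probe set that carried the symbols of both Egfl7 and a microRNA gene was left out by that rule. The genes were chosen by their symbols with the log2 differences between the arrays labelled Falcor-null and wild type on these 6 arrays known, so those values are given as a description and no test of them is made.

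Microarrays measured RNA from whole mouse lung in 3 samples labelled wild type and 3 labelled Falcor-null, where null refers to Falcor, a gene for a long non-coding RNA and a neighbour of Foxa2 on the chromosome. Every sample was taken after naphthalene, which injures the club cells of the conducting airway, and all carried the mixed strain label of CD1 and C57Bl6, so these 6 samples hold no uninjured group. The labels give 28, 29 and 30 days after naphthalene for wild-type replicates 1, 2 and 3 and 31, 32 and 33 days for Falcor-null replicates 1, 2 and 3. These numbers rise by 1 from each sample to the next, as a single day filled down a sheet would, and no source used here says whether they are true days. If they are, day and genotype changed together and cannot be told apart. The sources used here do not give age, sex, the number of animals behind a sample or the way the null allele was made, and the spread between samples may be technical. The Falcor probe set (symbol 9030622O22Rik) read 4.69, 5.01 and 5.45 on the log2 scale in wild type, while arrays with the null label read 6.82, 6.34 and 6.32. It was thus higher and not lower in the null group, and no source used here says whether its probes lie in the part of Falcor that was altered. The 3 arrays are therefore called null-labelled, and each direction below rests on that label. The alveolar markers Sftpc (13.6 in both groups) and Ager (12.2 and 12.5) and the club cell marker Scgb1a1 (13.6 in both) were bright in both groups.

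Vessels are lined by endothelial cells. Vegfa protein, made in the lung largely by alveolar epithelium, signals through the receptor tyrosine kinase that Kdr encodes, while the Flt1 product binds the same ligand and acts largely as a decoy; Tek encodes the receptor of the angiopoietins and Tie1 its partner without a settled ligand of its own. Eng encodes a co-receptor for bone morphogenetic proteins, Cdh5 the cadherin of endothelial adherens junctions, Pecam1 an adhesion molecule of endothelium, platelets and leukocytes, and Egfl7 a secreted protein of vascular matrix. Bcl6b encodes a zinc finger repressor with a BTB domain, related to Bcl6. The lung capillary bed is among the densest in the body.

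The stretch just before the transcription start is shown for Tie1, Egfl7 and Vegfa, since after Bcl6b these genes had the largest log2 differences of the 10 from wild type. RefSeq promoter entries of build GRCm38.p6 matched 7 of the 10 genes; Bcl6b, Cdh5 and Pecam1 had none. Each run is the 250 bases before the outermost annotated start, 5′ to 3′ on the gene's strand, with the ETS core GGAA or its complement TTCC in capitals. ETS factors such as Erg and Fli1 are regulators that endothelial genes share. The Tie1 run is chr4:118489850-118490099 on the minus strand, the Egfl7 run chr2:26580833-26581082 on the plus strand and the Vegfa run chr17:46032378-46032627 on the minus strand.
Tie1: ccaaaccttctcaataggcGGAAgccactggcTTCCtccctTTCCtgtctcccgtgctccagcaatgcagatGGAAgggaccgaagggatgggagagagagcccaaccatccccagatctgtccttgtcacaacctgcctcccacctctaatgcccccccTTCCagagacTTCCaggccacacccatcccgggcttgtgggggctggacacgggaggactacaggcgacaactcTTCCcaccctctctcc
Egfl7: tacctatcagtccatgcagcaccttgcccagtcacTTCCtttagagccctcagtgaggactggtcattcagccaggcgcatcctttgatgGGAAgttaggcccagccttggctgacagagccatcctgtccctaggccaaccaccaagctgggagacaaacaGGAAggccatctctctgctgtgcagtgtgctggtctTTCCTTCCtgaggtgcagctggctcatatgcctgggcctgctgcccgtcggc
Vegfa: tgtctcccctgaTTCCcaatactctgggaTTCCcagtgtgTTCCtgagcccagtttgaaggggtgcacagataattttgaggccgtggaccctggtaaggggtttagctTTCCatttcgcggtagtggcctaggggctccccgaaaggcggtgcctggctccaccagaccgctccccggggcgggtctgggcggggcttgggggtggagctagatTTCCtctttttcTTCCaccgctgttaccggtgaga

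These runs held 7, 5 and 6 such cores on either strand for Tie1, Egfl7 and Vegfa, against a median of 3 over the 32851 starts of the table, of which 93.4% held at least 1. All 10 starts listed for the 7 matched genes held at least 1 core, from 1 at an inner Egfl7 start to 7 at Tie1. The starts not shown lay around the median of the table. Flt1 and Kdr held 4 each, Eng and another inner Egfl7 start 3, and Tek and an inner Vegfa start 2. The forkhead motif TGTTTAC, read on both strands, stood at 0 of these 10 starts and at 3.17% of all starts. The hypoxia response core ACGTG stood at 1 of the 10, an inner start of Vegfa, and at 16.6% of all starts. The ACGTG match did not overlap a GGAA core, and a match of letters is a description of the sequence and not a binding site.

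All 10 genes had a higher mean on the null-labelled arrays, by between 0.03 (Eng) and 0.93 (Bcl6b) on the log2 scale, with a median of 0.21. The median difference over all 16537 genes was 0.00258, and 50.8% of all genes had a difference above 0. In 6 of the 10 genes, Bcl6b, Tie1, Egfl7, Vegfa, Pecam1 and Cdh5, every null-labelled array lay above every wild-type array, as in 8.96% of all genes. The groups overlapped for Kdr, Tek, Flt1 and Eng. Since the same contrast chose the genes, nothing is read from these counts. In whole lung, more cells of a type and more RNA per cell cannot be told apart.

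**Figure D1:**
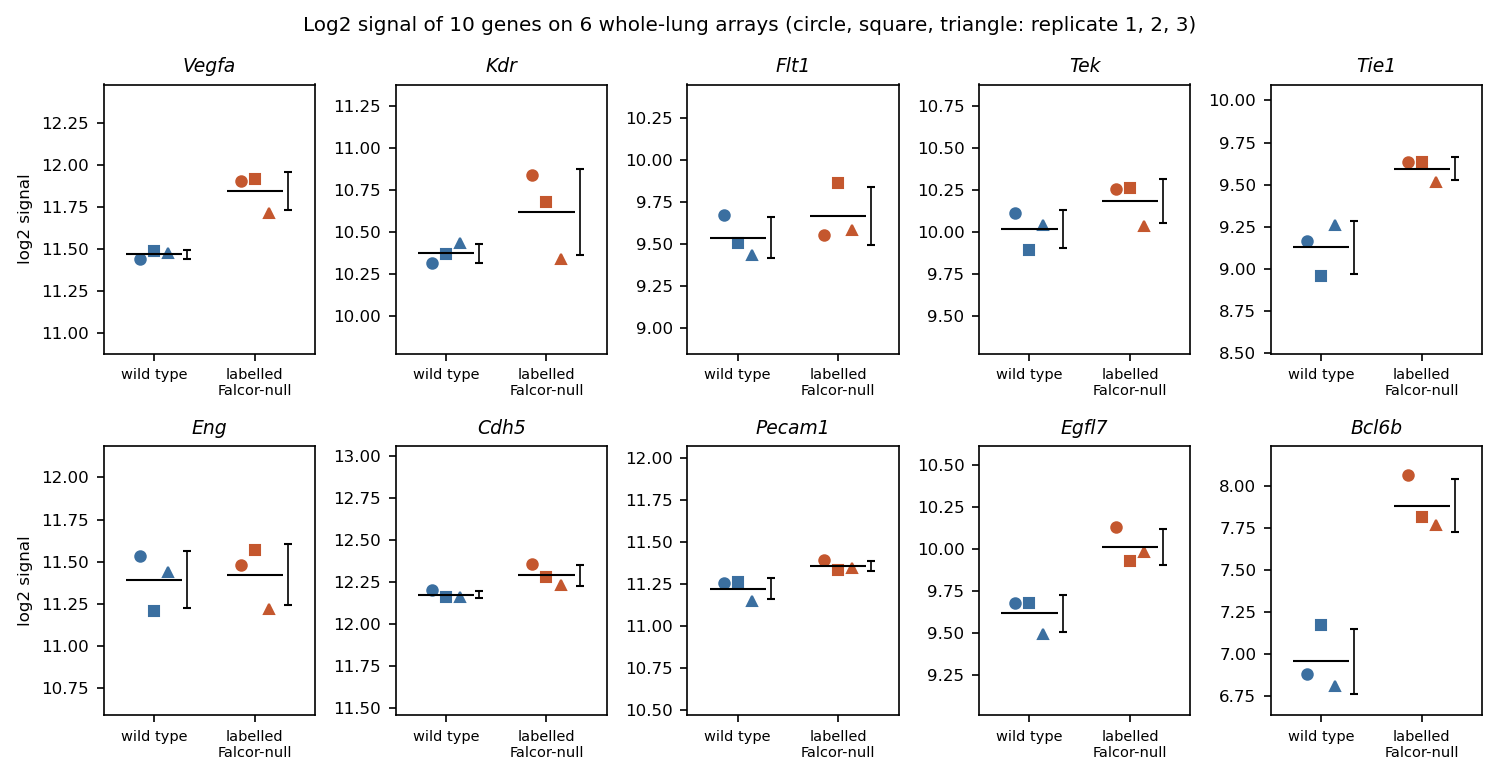
Log2 signal (vertical axes, 1.6 log2 units high in each panel) of the 10 genes on the 6 arrays, wild type in blue and the null-labelled arrays in orange; symbols stand for replicates 1 to 3, horizontal bars for group means and error bars for 1 SD (n = 3). The groups are farthest apart for Bcl6b and overlap for Kdr, Tek, Flt1 and Eng.

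The ligand gene Vegfa read 11.44, 11.49 and 11.48 in wild type and 11.91, 11.92 and 11.71 on the null-labelled arrays. The groups did not overlap, and the third null-labelled array lay nearest to wild type. The means were 11.47 ± 0.03 and 11.85 ± 0.11 (SD, n = 3 each), a log2 difference of 0.38 (SE 0.08), or 1.30-fold. A larger difference was found for 2.27% of all genes. This rank, like those of Tie1 and Bcl6b below, is a description, since the same contrast chose the genes.

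Its main signalling receptor gene Kdr read 10.32, 10.37 and 10.43 in wild type and 10.84, 10.68 and 10.34 on the null-labelled arrays. The first and second of the latter were above all wild-type arrays, while the third lay among them. The difference of 0.25 (SE 0.13) became 0.38 when null-labelled replicate 3 was left out and 0.14 when replicate 1 of that group was. The decoy receptor gene Flt1 read 9.67, 9.50 and 9.43 in wild type and 9.55, 9.86 and 9.58 in the other group. Here only the second null-labelled array lay above wild type, the difference was 0.13 (SE 0.11), and without that array it was 0.03. Leaving out wild-type replicate 1 gave 0.20 for Flt1 and leaving out wild-type replicate 3 gave 0.08.

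Of the Tie receptors, Tek read 10.11, 9.89 and 10.04 in wild type and 10.26, 10.26 and 10.03 on the null-labelled arrays, with the third of the latter inside the wild-type range. Its difference was 0.17 (SE 0.10), and 0.11 without wild-type replicate 2. Tie1 read 9.17, 8.95 and 9.26 against 9.63, 9.64 and 9.52. Its groups lay 0.25 apart at their nearest arrays, and the difference was 0.47 (SE 0.10), or 1.38-fold, exceeded by 1.10% of all genes. Taken as a ratio within each array, Tie1 to Tek was 0.27, 0.27 and 0.37 log2 units above its wild-type mean on the null-labelled arrays, where the wild-type arrays deviated by -0.06, -0.05 and 0.11. The groups did not overlap in that ratio. The ratio of Kdr to Flt1 gave 0.45, -0.02 and -0.08 against -0.19, 0.03 and 0.16, and its groups overlapped.

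The co-receptor gene Eng read 11.53, 11.20 and 11.44 in wild type and 11.48, 11.57 and 11.22 on the null-labelled arrays. It had the smallest difference of the 10, 0.03 (SE 0.12), with ranges that lay almost on top of each other. Leaving out wild-type replicate 2 turned it to -0.06, and leaving out null-labelled replicate 2 turned it to -0.04.

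The junction genes differed little but varied little too. Cdh5, the cadherin gene that defines endothelium, read 12.20, 12.16 and 12.16 in wild type and 12.36, 12.28 and 12.23 on the null-labelled arrays, 0.11 apart (SE 0.07) in their means and 0.03 apart at the nearest arrays. Pecam1 read 11.25, 11.26 and 11.15 against 11.39, 11.33 and 11.34, a difference of 0.13 (SE 0.07). Both pairs of groups were separate, by a margin far smaller than that of Tie1 or Bcl6b. The log2 ratio of Cdh5 to Pecam1 on the null-labelled arrays stood at -0.02 ± 0.04 from its wild-type mean (SD, n = 3), inside the spread of the wild-type arrays (SD 0.06).

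The matrix factor gene Egfl7 read 9.68, 9.68 and 9.49 in wild type and 10.13, 9.93 and 9.98 on the null-labelled arrays. The groups lay 0.25 apart at their nearest arrays, and the difference was 0.40 (SE 0.09), or 1.32-fold. With any 1 array left out it stayed between 0.33 and 0.44.

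Bcl6b stood apart from the other 9. It read 6.88, 7.17 and 6.81 in wild type and 8.06, 7.82 and 7.76 on the null-labelled arrays, so that the lowest of the latter lay 0.59 above the highest wild-type array. The means were 6.95 ± 0.19 and 7.88 ± 0.16 (SD, n = 3 each), a difference of 0.93 (SE 0.13), or 1.90-fold, and 0.139% of all genes had a larger one. The difference ranged from 0.84 to 1.04 with each array left out in turn.

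**Figure D2:**
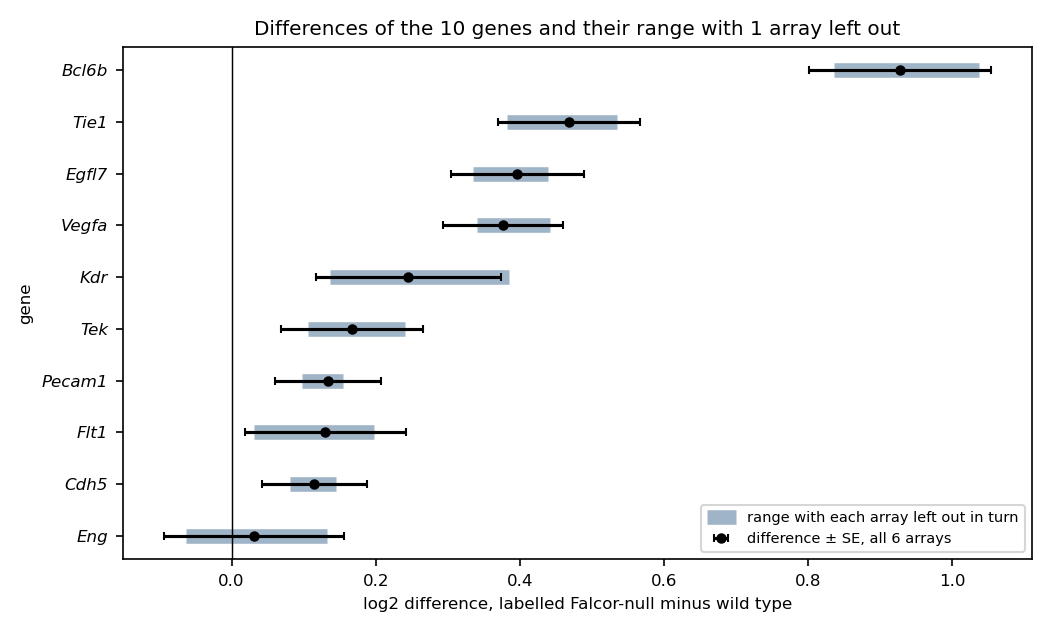
Log2 difference, null-labelled arrays minus wild type (horizontal axis), for each of the 10 genes, with dots and error bars for the difference ± SE over all 6 arrays and grey bands for the range with each array left out in turn. The band of Eng crosses 0, and that of Bcl6b runs from 0.84 to 1.04, above all others.

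The 10 genes varied between arrays of a group about as much as other genes did. Their SD within a group was 0.12 in the median, from 0.05 (Cdh5) to 0.18 (Kdr), where the median over all genes was 0.12. The third null-labelled array was the lowest of its group for 7 of the 10 genes. Averaged over the 10 genes, each array's deviation from the wild-type means was 0.37, 0.34 and 0.18 on the null-labelled arrays and 0.04, -0.02 and -0.02 on the wild-type arrays. Without Bcl6b the former were 0.29, 0.28 and 0.11.

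To set the 10 genes against endothelium as a whole, each was taken as a ratio to the mean of 29 other endothelial markers on the same array. Bcl6b remained 0.76 log2 units above its wild-type mean by this ratio, with 0.89, 0.71 and 0.69 on the null-labelled arrays and -0.15, 0.24 and -0.09 on the wild-type arrays. Tie1 (0.30), Egfl7 (0.23) and Vegfa (0.21) also had separate groups by this ratio. Before any ratio, the 29 markers themselves differed between the groups by -0.36 to 0.63. Of them 10 had groups separate and higher and 2 separate and lower. Their mean thus stands for markers that differed among themselves, and single markers can depart from it as these genes did. Kdr (0.08), Tek (0.0036), Pecam1 (-0.03), Flt1 (-0.03), Cdh5 (-0.05) and Eng (-0.13) had groups that overlapped. The groups of Kdr, Tek, Flt1 and Eng overlapped before the ratio as well, so only those of Cdh5 and Pecam1 went from separate to overlapping. Since the same contrast chose the genes, these ratios are a description.

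Other genes were read from 10 lists, called vascular here although they also hold widely expressed genes such as Hdac1 and Akt1. Besides the 10, 178 genes of these lists were measured. Of these, 134 (75.3%) had a difference above 0 and 44 below, with a median of 0.11. None was called higher by limma over all genes at an adjusted p of 0.05 (0.0968% of all genes were), with 35 higher at an unadjusted p under 0.05 (6.11% of all genes were). Only Slc6a2 was called lower (0.46% of all genes were, and 0.556% in either direction), with 8 lower at an unadjusted p under 0.05 (7.65%). Groups were separate and higher for 44 genes (24.7%, against 8.96% of all genes) and separate and lower for 10 (5.62%, against 10.6%). The lists, like the 10 genes, were chosen with earlier results of these data known, so these shares and the list counts below are a description.

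Slc6a2 encodes the noradrenaline transporter, which lung endothelium uses to clear the amine from blood. It read 7.08, 7.22 and 7.05 in wild type and 6.19, 6.17 and 6.14 on the null-labelled arrays, and fell 1.93-fold (log2 difference -0.95, SE 0.08, limma adjusted p 0.00651). It was lower on 3 of 3 arrays and passed in each of the 14 alternative fits. It stood in the list of arterial, venous and lymphatic markers, where 10 of 17 genes were higher and 7 lower, with a median of 0.07. The second gene of that list by p-value, the netrin receptor gene Unc5b, stood at 0.43 with an adjusted p of 0.0793.

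**Figure D3:**
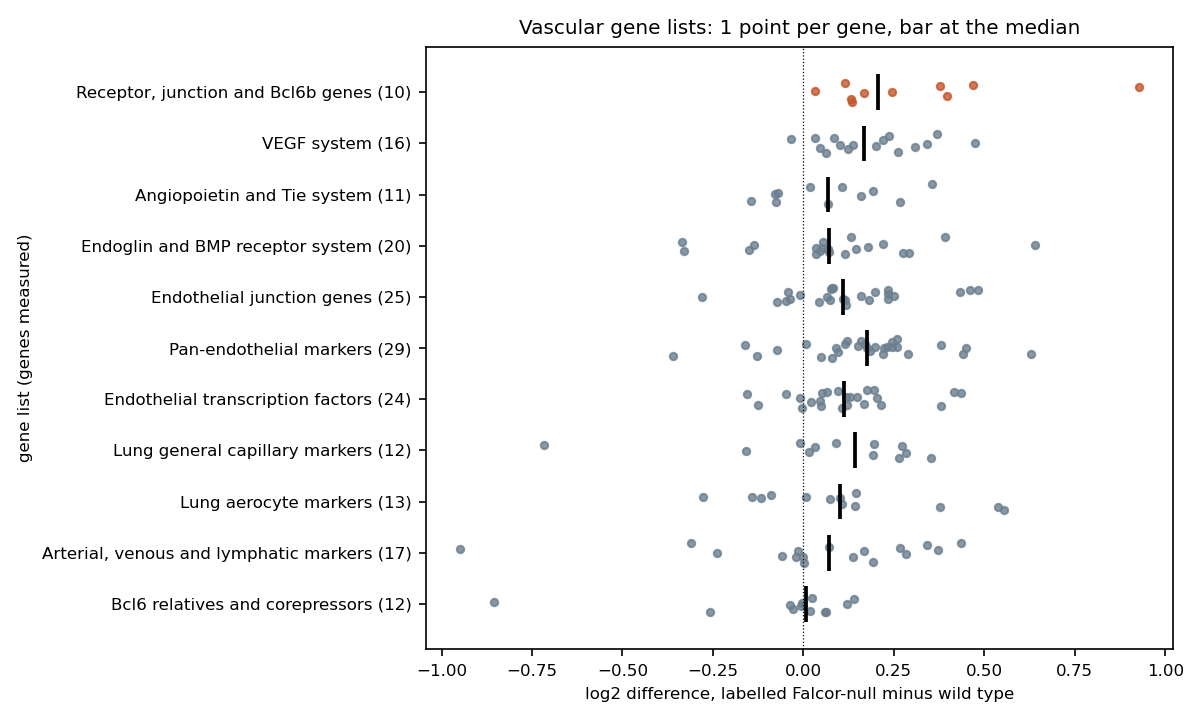
Log2 difference, null-labelled arrays minus wild type (horizontal axis), of every measured gene of the 10 vascular lists and of the 10 genes described here (top line, orange), with 1 point per gene, a bar at each median and the number of genes in brackets. Medians run from 0.01 for the Bcl6 relatives to 0.21 for the 10 genes; the lowest point is Slc6a2 at -0.95.

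Among 16 other genes of the VEGF system, which holds further ligands, receptors and targets, 15 were higher and 1 lower, with a median of 0.17 and none called. The ligand gene Vegfd read 9.37, 9.25 and 8.92 in wild type and 9.54, 9.64 and 9.78 in the other group, a difference of 0.47 (adjusted p 0.180). Nr4a2, a nuclear receptor gene switched on by VEGF signalling, had 0.34 (adjusted p 0.199). Among 11 genes of the angiopoietin and Tie system, 7 were higher and 4 lower, with a median of 0.07 and none called. Svep1, a large matrix protein gene, had 0.36 (adjusted p 0.101), and 0.23 with its probe sets averaged. The Tek ligand gene Angpt1 had 0.27 (adjusted p 0.433), which became 0.18 with its probe sets averaged and 0.15 without wild-type replicate 3. None of the 20 genes listed for Eng's pathway was called either, 16 being higher and 4 lower with a median of 0.07. There the BMP-binding regulator gene Bmper had 0.64 (adjusted p 0.107) and the BMP target gene Id1 had 0.39 (adjusted p 0.104).

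Among 25 further endothelial junction genes, 19 were higher and 6 lower, with a median of 0.11. The nearest to the threshold were the arterial connexin gene Gja5, which read 6.20, 6.35 and 6.25 in wild type and 6.78, 6.70 and 6.77 on the null-labelled arrays, and the adhesion gene Mcam. Their differences of 0.48 and 0.46 had adjusted p-values of 0.0530 and 0.0602. Both were called when arrays were centred on their medians, normalized again or tested without dim probe sets. With an intensity trend in the fit Mcam was called (limma adjusted p 0.0224) and Gja5 was not (limma adjusted p 0.0521). Neither was called with replicate number as a block (limma adjusted p 0.134 for both). Nor was either called with any 1 array left out, where the lowest limma adjusted p was 0.107 for Gja5 and 0.0791 for Mcam. Among the 29 general endothelial markers, 25 were higher and 4 lower (median 0.18, none called), with the adaptor gene She at 0.38 (adjusted p 0.0882) and Ushbp1 at 0.45 (adjusted p 0.0997). Among 24 endothelial transcription factor genes 19 were higher and 5 lower (median 0.11, none called). The flow-responsive factors Klf4 (0.38) and Klf2 (0.42) had adjusted p-values of 0.252 and 0.283, and without wild-type replicate 3 the Klf4 difference was 0.25.

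Lung capillaries hold general capillary cells and aerocytes, the thin cells of gas exchange. Of 12 general capillary markers 9 were higher and 3 lower (median 0.14, none called). Tmem100 had 0.26 (adjusted p 0.175), and the lipase gene Lpl, which is also expressed by macrophages, had -0.72 (adjusted p 0.217). Of 13 aerocyte markers 9 were higher and 4 lower (median 0.10, none called), with Chst1 at 0.38 (adjusted p 0.105) and Rprml at 0.54 (adjusted p 0.122).

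The relatives and corepressors of Bcl6b gave a median of 0.01, with 6 of 12 higher and 6 lower and none called. Bcl6, its closest relative, read 8.50, 8.37 and 8.40 in wild type and 8.06, 8.19 and 8.25 on the null-labelled arrays. That difference of -0.26 (adjusted p 0.240) was opposite in sign to that of Bcl6b. Zbtb16 had -0.85 (adjusted p 0.493), which rested on null-labelled replicate 1 at 8.40 where the other 5 arrays read 10.2 to 10.7. Without that array the difference was -0.22.

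The 5 named genes whose values followed Bcl6b most closely over the 6 arrays were Tpm3, Fam171a2, Gria1, Ndnf and Tmtc2. Likeness was the root mean square difference between values centred on each gene's own mean, and it lay between 0.13 and 0.17 log2 units. The tropomyosin gene Tpm3 had a difference of 1.13 by this probe set and of 0.06 by its other one. The glutamate receptor gene Gria1 had 0.91, the secreted factor gene Ndnf 0.80, Tmtc2 0.74 and Fam171a2 0.66. For each of them, as for Bcl6b, the groups were separate. The genes were picked for that pattern, so no test is given.

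**Figure D4:**
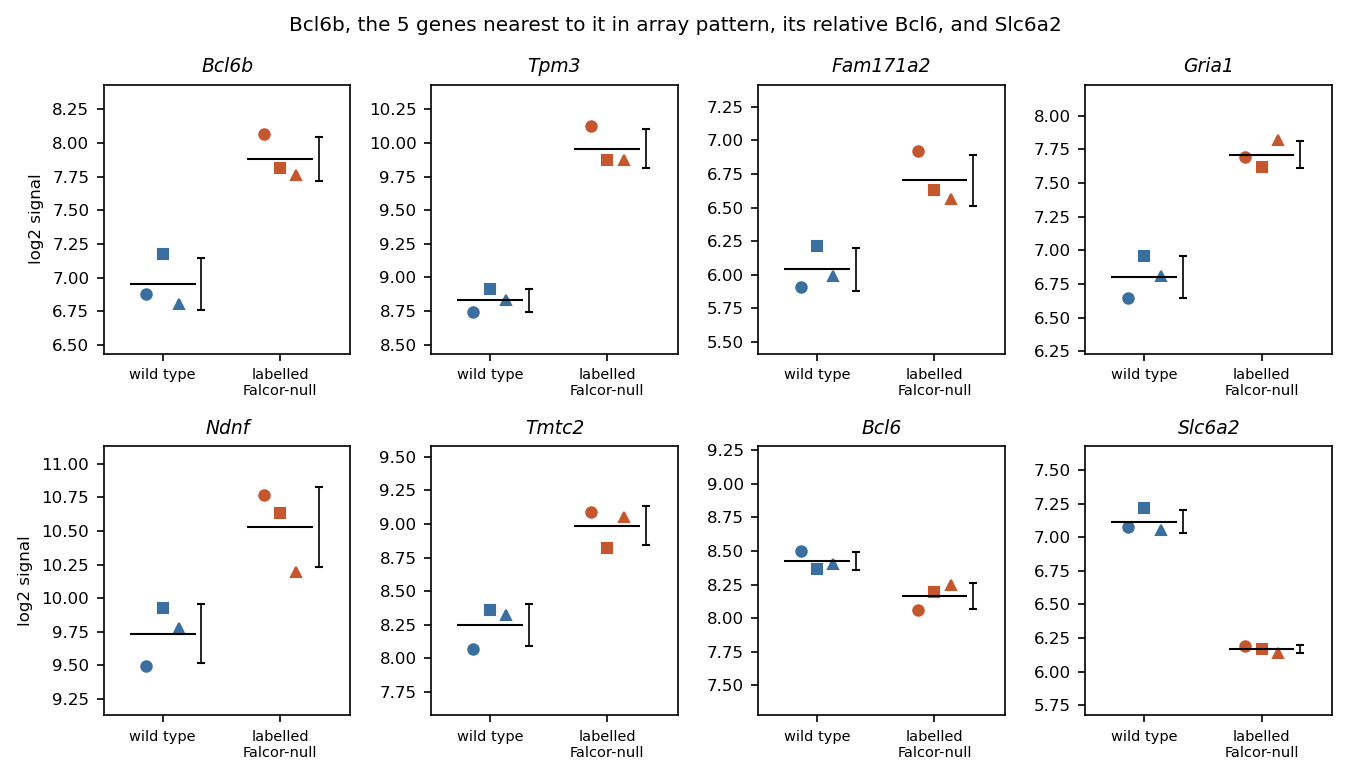
Log2 signal (vertical axes, 2 log2 units high in each panel) of Bcl6b, the 5 genes nearest to it in array pattern, Bcl6 and Slc6a2, with symbols for replicates 1 to 3, horizontal bars for group means and error bars for 1 SD (n = 3). Bcl6 and Slc6a2 are lower on the null-labelled arrays, the other 6 genes higher.

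Markers of other cells moved with the groups as well. Type 1 alveolar cells, which make Vegfa, had 15 of 16 markers higher, with a mean log2 signal of 10.003 to 10.095 in wild type and 10.162 to 10.318 on the null-labelled arrays. Spock2 was the only one called (0.82, adjusted p 0.0324), and its call was lost in 5 of the 6 fits that left out an array, all but that without wild-type replicate 1. The ratio of Vegfa to the mean of these markers was 0.20, 0.17 and 0.13 above its wild-type mean on the null-labelled arrays, where wild-type arrays deviated by -0.08, 0.03 and 0.05. The part that these cells have in the Vegfa value was not tested. Of 14 hypoxia response genes, a group in which Vegfa is a known target, 6 were higher and 8 lower, with a median of -0.02 and none called. Slc2a1, the glucose transporter gene, had -0.33 (adjusted p 0.148), or -0.18 (adjusted p 0.408) with its probe sets averaged, and Hif1a had 0.21 (adjusted p 0.370).

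Markers of pericytes, smooth muscle and alveolar fibroblasts were higher too. All 13 pericyte markers were higher (8.03 to 8.19 in wild type, 8.23 to 8.45 in the other group; none called), as were all 10 of smooth muscle (8.19 to 8.31, and 8.35 to 8.63) and all 14 of alveolar fibroblasts (9.11 to 9.28, and 9.44 to 9.63). The median log2 differences of these lists were 0.27, 0.18 and 0.34, where that of the 10 genes was 0.21. Tagln of the smooth muscle list rose (0.55, adjusted p 0.0407), as did the fibroblast gene Gdf10 (0.57, adjusted p 0.0465), though both calls were lost whichever array was left out. Of 10 adventitial fibroblast markers 6 were higher and 4 lower, where 50.8% of all genes were higher. Their median difference was 0.05 and their mean signals were 7.56 to 7.62, and 7.66 to 7.77 (none called).

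Leukocyte markers were lower, which touches Pecam1, a gene that leukocytes and platelets express as well. All 12 T and NK cell markers were lower (mean log2 signal 7.05 to 7.24 in wild type, 6.44 to 6.58 in the other group). Cd3e (-1.20, adjusted p 0.00949; lost without null-labelled replicate 2), Cd4 (-1.23, adjusted p 0.0131; lost without wild-type or null-labelled replicate 2) and Cd3g (-1.15, adjusted p 0.0324; lost whichever array was left out) fell. All 13 B and plasma cell markers were lower (7.39 to 7.60, and 6.61 to 6.70), and 4 were called, among them Jchain (-2.78), Ighm (-2.61) and Mzb1 (-0.85). The Mzb1 call was lost without wild-type replicate 2, null-labelled replicate 1 or null-labelled replicate 2. Of 16 macrophage and monocyte markers 14 were lower (8.28 to 8.66, and 7.80 to 8.12, none called). Of 11 genes in the neutrophil list 9 were lower (7.67 to 8.56, and 7.04 to 7.35, none called). Vamp5, which is not a neutrophil marker, is among these 11, since the listed symbol Camp was matched to it through a synonym. Platelet markers overlapped (6.38 to 6.95, and 6.34 to 6.67, with 6 of 8 lower). Only 2 red cell markers were measured. Type 2 alveolar markers (11.8 to 11.9, and 11.7 to 11.8) and club and ciliated cell markers (9.39 to 9.74, and 9.58 to 9.69) overlapped. Whether a lower share of leukocyte RNA plays a part in the higher endothelial values was not tested.

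**Figure D5:**
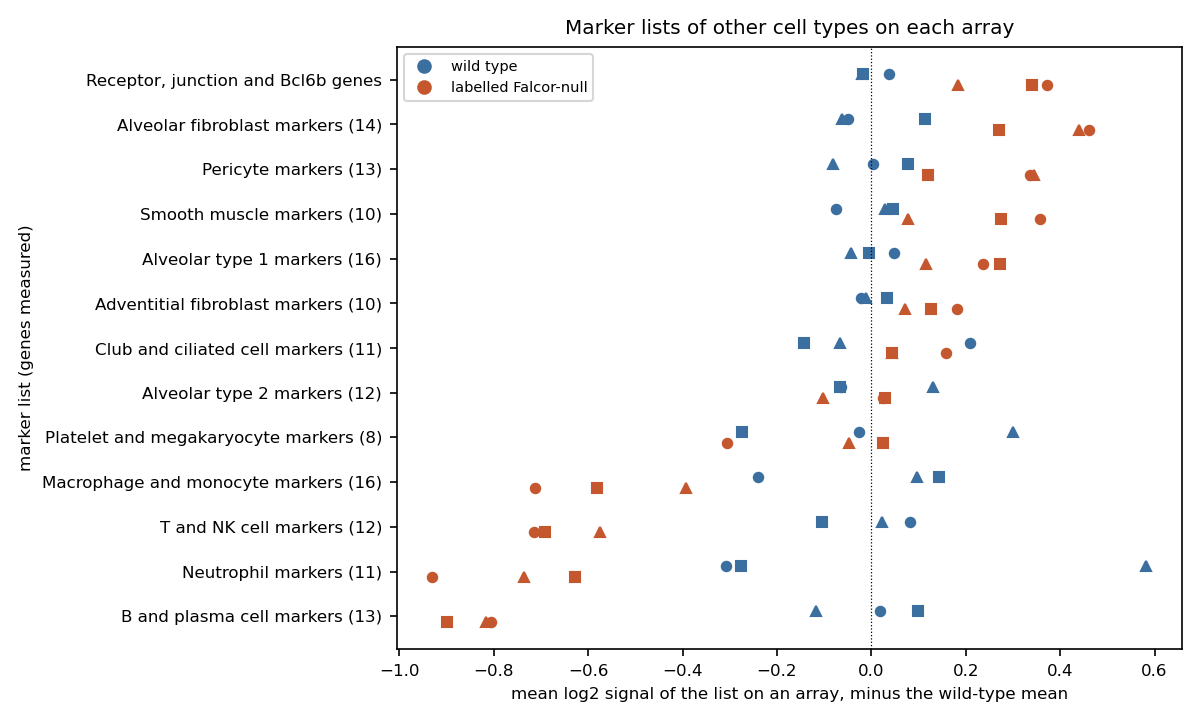
Mean log2 signal of each marker list on each array minus the wild-type mean of the list (horizontal axis), wild type in blue and the null-labelled arrays in orange, with symbols for replicates 1 to 3 and the number of measured genes in brackets; the top line is the mean of the 10 genes described here. Leukocyte lists lie to the left and fibroblast, pericyte and smooth muscle lists to the right on the null-labelled arrays. The neutrophil list includes Vamp5 in place of Camp.

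Immediate early and heat shock genes, which respond to handling of tissue and to flow, had 11 of 14 higher with a median of 0.15 and none called. Their mean log2 signal was 7.74 to 8.16 in wild type and 8.13 to 8.17 in the other group. Nr4a1 had 0.74 (adjusted p 0.329), which became 0.41 without null-labelled replicate 1 and 1.04 without null-labelled replicate 3, and Egr1 had 0.28 (adjusted p 0.347). Whether handling plays a part in the values of the 10 genes was not tested.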

How the data were processed

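The deposited file holds RMA values, log2 signals with 1 column per array; oligo and limma are the other tools in the submitters' processing notes, and no version is stated. RMA subtracts background, makes the arrays' distributions more alike and summarises probes, so a shift of most genes one way would be largely removed. The deposited values still differed by group. Array medians were 6.72, 6.74 and 6.72 in wild type and 6.69, 6.70 and 6.70 on the null-labelled arrays. The lowest values were 3.22, 3.22 and 3.19 against 2.32, 2.09 and 2.42. Centring arrays on their medians raised the log2 difference of Eng from 0.03 to 0.07. The cause of this split was not tested. Row filters and detection calls are not given in the sources used here. Of 24173 probe sets, 17476 had exactly 1 symbol in the platform annotation; for the 740 genes with several such sets the brightest stood in, giving 16537 genes. The 2 groups were set against each other with limma 3.58.1 (lmFit, eBayes; R 4.3.3), two-sided, no covariate, Benjamini-Hochberg adjustment over all genes, threshold 0.05. An exact permutation test on 3 and 3 arrays has a smallest p of 0.1.

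The 10 genes and the 25 gene lists were chosen with earlier results of these data known. Of 395 listed symbols, 354 genes were matched, by symbol or else by a RefSeq synonym. Genes named were the 10, in each vascular, hypoxia or stress list the 2 with the smallest p and any called, in each cell type list up to 3 called, and the 5 nearest Bcl6b, leaving out small RNA and olfactory genes and unnamed gene models; Sftpc, Ager and Scgb1a1 were added as tissue markers. Cell type lists were summarised as the mean log2 signal of their measured markers. The fit was tested on simulated data that held no array or batch effects, so that test does not cover such effects in these arrays. Plots were made in Python 3.11.15 with matplotlib 3.10.9.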

Additional observations from a re-analysis of the deposited data

How the results depend on the processing

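The number of arrays limits the precision, and how far a probe set stood above background is not known. The 92 genes called over all genes became 32 with the replicate block and 280 at an adjusted p under 0.1, and ranged from 18 to 89 as each array was left out (wild-type replicates 1, 2 and 3: 89, 26 and 49; null-labelled replicates 1, 2 and 3: 24, 18 and 37). The replicate numbers share only a name: deviations of same-numbered arrays correlated at 0.02, -0.00255 and -0.08, and among wild-type arrays number 1 alone correlated best with its own number. Of the vascular genes outside the 10, 1 was called in the fit reported, 1 with each array left out in turn and 3 with arrays centred on their medians, with a second quantile normalization, with an intensity trend or without dim probe sets. That number was 7 at an adjusted p under 0.1 and 43 at an unadjusted p under 0.05. Where 3 were called they were Gja5, Mcam and Slc6a2, except with an intensity trend, where they were Ephb4, Mcam and Slc6a2. The median log2 difference of the 10 genes, 0.21, ranged from 0.16 to 0.31 as each array was left out, the highest when it was null-labelled replicate 3. Of 140 alternative values of the single genes, 2 changed sign, both of Eng, whose log2 difference ranged from -0.0626 to 0.133 as each array was left out. The mean log2 difference of type 2 alveolar markers turned from -0.0163 to 0.0217 with arrays centred on their medians. The cause of these changes was not tested.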
